A study of Rattus norvegicus with 12 samples.

Results

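The Oas and Mx genes are antiviral genes that cells switch on in response to interferon. Here 8 of them, Oas1a, Oas1b, Oas2, Oas3, Oasl, Oasl2, Mx1 and Mx2, were followed by RNA sequencing in cultured neonatal rat cardiac fibroblasts after knockdown of the transcriptional coactivators Yap, Wwtr1 (also called Taz) or both. The genes were chosen by symbol, with earlier results of these data known. The shares of all genes set beside them are thus a description and not a test. All 8 were among the 12271 genes of the deposited table, and all 8 had a mean of at least 10 normalized counts over the 12 libraries, as did 11871 genes in all. Oas3 reached that mean only through the knockdown groups, since its mean in the controls was 4.0.

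Oas proteins are oligoadenylate synthetases. On binding double-stranded RNA, the active enzymes join ATP into short oligoadenylate chains, which serve as a second messenger of the antiviral response. Oas2 and Oas3 are larger proteins built of repeated synthetase units, and the Oasl proteins carry ubiquitin-like domains at one end. Mx proteins are dynamin-like GTPases that form rings around viral nucleoprotein; in rodents Mx1 works in the nucleus and Mx2 in the cytoplasm. Type I interferon induces both families through its receptor, the kinases Jak1 and Tyk2, and a transcription factor complex holding Stat2 and Irf9 that binds a promoter sequence called the interferon-stimulated response element.

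The cells came from heart ventricles of Sprague Dawley rats at postnatal day 2. In 4 groups of 3 libraries they received a pair of universal negative control siRNAs (the controls), a pair of siRNAs against Yap, a pair against Wwtr1, or siRNAs against Yap and Wwtr1 (double knockdown). The labels give a dose of 25 nM for each siRNA and collection of RNA at 48 hours. In the study's methods the 48 hours before RNA collection run from a medium change made after transfection. The methods also state that the 3 replicates of a group came from separate litters. For the double knockdown the siRNA label names only the Wwtr1 siRNAs while the title names both targets, and the total siRNA dose of that group is not given in the sources used here. Every group received siRNA, which is itself a short double-stranded RNA, and each target was met by 1 pair, so that loss of the target and the siRNA pair used cannot be told apart.

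Recovered totals ran from 33886920 to 36344351 reads in 10 libraries and were 41018466 and 41059839 in double knockdown replicates 2 and 3. Yap1 was 3042, 3776 and 2984 normalized counts in the controls, 532, 576 and 625 after Yap knockdown, and 713, 739 and 1474 after double knockdown. Wwtr1 was 2364, 2565 and 2280 in the controls, 524, 550 and 637 after Wwtr1 knockdown, and 818, 731 and 1056 after double knockdown. All 12 fibroblast markers looked for (collagens, Dcn, Pdgfra, Tcf21 and others) were present, and their summed counts per library, to which Col1a1 gave the most, ran from 3150380 to 4326100. After double knockdown 4 of them were called higher than in the controls (Postn, Lum, Pdgfra and Dcn) and 3 lower (Col1a2, Tcf21 and Vim). The series design text speaks of myocytes, whereas cardiomyocyte markers, 8 of 9 of which were listed, summed to 31596 to 52632 in the controls, 40874 to 63855 after Yap knockdown, 32613 to 57180 after Wwtr1 knockdown and 54410 to 70201 after double knockdown, where Myh6, Tnni3 and Myl2 were called higher than in the controls. All 8 endothelial markers were listed and summed to 4181 to 4667 in the controls and 3882 to 4922 after double knockdown, where Tek, Cdh5, Vwf and Kdr were called higher, in a comparison in which 17.1% of all genes were. The part of these cells in the results was not tested. Summed macrophage markers, 12 of 13 of which were listed, were 6779, 13978 and 48719 in double knockdown replicates 1, 2 and 3, 22795 to 32651 in the controls, 19247 to 28128 after Yap knockdown and 11707 to 19950 after Wwtr1 knockdown. None of the 12 was at 0 in all libraries of a group, and Cx3cr1, at 0 in double knockdown replicate 1, was the only macrophage marker called after double knockdown, where it was lower. Double knockdown replicate 3 thus stood apart in macrophage markers and in its residual Yap1. It did so in some of the 12 fibroblast markers too (Dcn 51879 against 19496 and 16321, Lum 27679 against 9037 and 8338, Thy1 1500 against 3369 and 3581 in replicates 1 and 2), among which no tally was made. Some results that rest on this library are given with and without it, while the marker calls are given only with it. These are bulk libraries, in which more cells of a type and more RNA per cell cannot be told apart.

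The promoters are shown first because interferon acts on its target genes through a short promoter sequence. RefSeq promoters (assembly GRCr8, 250 bases before to 50 after the annotated start) were at hand for 6 of the 8 members, Oas1a, Oas1b, Oas3, Oasl, Oasl2 and Mx1; Oas2 and Mx2 were not searched. Both strands were searched for GAAANNGAAA, the core of the interferon-stimulated response element, where N is any base. It was found in 4 of the 6 member promoters (Oas1a, Oas1b, Oas3 and Oasl2) and in 3.92% of all 33469 promoters in the table. Stretches of 70 bases that lie before the start site are printed 5′ to 3′ on the strand of the gene, with matches in capitals. Oas1i, a further Oas1 paralog that holds the match, is added for comparison, while the paralogs Oas1f and Oas1h held none. The expression table was made on another build (rn6), so these positions hold for GRCr8 only.
Oas1a, chr12:41330396-41330465, plus strand: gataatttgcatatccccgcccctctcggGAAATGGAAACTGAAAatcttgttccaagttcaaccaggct
Oas1b, chr12:41395853-41395922, minus strand: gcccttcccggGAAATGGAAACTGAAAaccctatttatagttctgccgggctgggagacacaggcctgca
Oas1i, chr12:41285156-41285225, plus strand: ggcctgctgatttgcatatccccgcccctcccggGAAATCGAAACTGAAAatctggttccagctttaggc
Oas3, chr12:41439607-41439676, plus strand: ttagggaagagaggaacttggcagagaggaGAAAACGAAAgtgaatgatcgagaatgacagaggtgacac
Oasl2, chr12:47383297-47383366, minus strand: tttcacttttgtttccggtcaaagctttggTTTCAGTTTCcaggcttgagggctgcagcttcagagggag

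In Oas1a, Oas1b and Oas1i the capitals hold 2 overlapping matches, which begin at positions -41 and -35 from the start in Oas1a, -59 and -53 in Oas1b, and -36 and -30 in Oas1i. Over 55 bases aligned on the match without gaps, the Oas1a and Oas1b stretches were identical at 49 positions, those of Oas1a and Oas1i at 48 and those of Oas1b and Oas1i at 46. Oas3 held 1 match, at -95, and Oasl2 held 1, at -151, on the opposite strand, so that it reads as TTTC repeats. Mx1 and Oasl held no strict match in this window. The gamma-activated site TTCNNNGAA, through which interferon gamma acts, was found in the Oas1a and Oas1b promoters only among the 6, against 8.87% of all promoters. GGAATG, the letters that the Yap and Wwtr1 partners of the TEAD family bind, was found in 1 of the 6, Oasl2, against 14.2% of all promoters. A match is a description of the letters and not a measured site.

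Oas1a and Oas1b encode small synthetases; the mouse counterpart of Oas1b is known for resistance to flaviviruses. Oas1a was 12.3, 244 and 31.0 normalized counts in control replicates 1, 2 and 3, 2629, 1993 and 955 after Yap knockdown, 3199, 2251 and 621 after Wwtr1 knockdown, and 4002, 4474 and 3649 after double knockdown. Every knockdown library lay above every control library, and control replicate 2 was the highest control. Oas1b was 36.9, 192 and 48.6 in the controls, 1909, 1379 and 883 after Yap knockdown, 2050, 1765 and 583 after Wwtr1 knockdown, and 2219, 2800 and 1858 after double knockdown. Its knockdown libraries were likewise all above its controls, and its double knockdown values overlapped those of each single knockdown.

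Oas2 and Oas3 encode the larger synthetases and had few reads in the controls. Oas2 was 3.08, 32 and 0 normalized counts in the controls, 474, 343 and 121 after Yap knockdown, 496, 296 and 69.1 after Wwtr1 knockdown, and 821, 877 and 1388 after double knockdown. Every knockdown library lay above the controls, with the lowest knockdown library at 69.1 and the highest control at 32. Oas3 was listed at 0 in control replicates 1 and 3 and was 12 in replicate 2. It was 43.0, 23.6 and 25.1 after Yap knockdown, 19.8, 36.7 and 5.08 after Wwtr1 knockdown, and 19.9, 37.6 and 158 after double knockdown. Wwtr1 knockdown replicate 3 lay below the highest control, and double knockdown replicate 3, the library rich in macrophage markers, held the highest Oas3 and Oas2 values of all 12. The part of macrophage RNA in these values was not tested.

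Oasl and Oasl2 encode the synthetase-like proteins with ubiquitin-like domains. Oasl was 44.1, 131 and 57.9 normalized counts in the controls, 2691, 1863 and 757 after Yap knockdown, 2091, 1560 and 497 after Wwtr1 knockdown, and 3672, 4550 and 4756 after double knockdown. The 3 double knockdown libraries, of which replicate 3 was the highest, were above all 6 single knockdown libraries, which were above all controls. Oasl2 was 156, 429 and 214 in the controls, 2648, 2555 and 1551 after Yap knockdown, 4717, 3375 and 1217 after Wwtr1 knockdown, and 5804, 5658 and 4080 after double knockdown. Its double knockdown libraries overlapped Wwtr1 knockdown replicate 1 and exceeded all Yap knockdown libraries.

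Mx1 and Mx2 encode the GTPases. Mx1 was 18.5, 494 and 95.1 normalized counts in the controls, 9171, 5195 and 1768 after Yap knockdown, 11498, 4543 and 1325 after Wwtr1 knockdown, and 19104, 19430 and 14531 after double knockdown. Its double knockdown libraries exceeded all single knockdown libraries, which exceeded all controls. Mx2 was 34.9, 951 and 140 in the controls, 15872, 10282 and 5011 after Yap knockdown, 27192, 17027 and 4348 after Wwtr1 knockdown, and 36391, 34679.5 and 22062 after double knockdown. Its highest control, replicate 2, was 27.2 times its lowest, the widest control range among the 6 members with no control at 0. Together the 8 genes made up 0.000823%, 0.00685% and 0.00157% of all normalized counts in the controls, 0.0962%, 0.0651% and 0.02995% after Yap knockdown, 0.144%, 0.08498% and 0.0235% after Wwtr1 knockdown, and 0.211%, 0.211% and 0.146% after double knockdown.

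**Figure D1:**
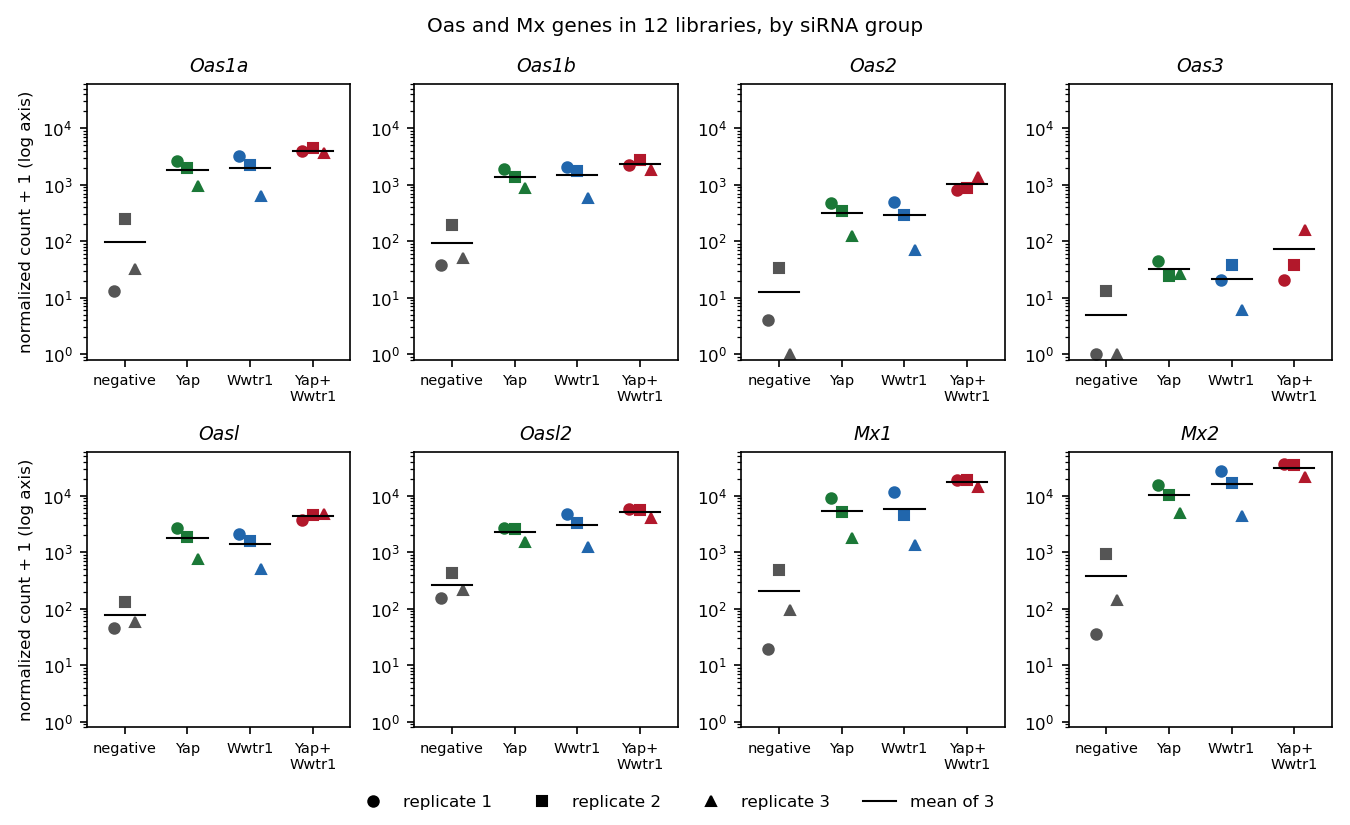
Normalized counts plus 1 (log axis) of the 8 Oas and Mx genes in every library, by siRNA group; symbols are replicates 1 to 3 and lines are means of 3 libraries. Knockdown libraries lie above control libraries for all genes but Oas3, whose Wwtr1 knockdown replicate 3 (5.08) lies below control replicate 2 (12), and the double knockdown mean is the highest for all 8.

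The first question was whether loss of Yap alone changed the antiviral genes. After Yap knockdown 7 of the 8 members rose, against 3.02% of all 11871 genes called higher (limma, adjusted p under 0.05). The log2 fold changes of the 8 ran from 3.17 to 5.79 with a median of 4.83, where the median of all genes was -0.00. Mx2 was at 5.79 (SE 0.97, limma adjusted p 0.00914), Oas2 at 5.73 (SE 1.06, adjusted p 0.0135), Mx1 at 5.49 (SE 1.03, adjusted p 0.0138) and Oas1a at 5.18 (SE 0.88, adjusted p 0.00921). Oasl rose by 4.47 (SE 0.56, adjusted p 0.00345), Oas1b by 4.22 (SE 0.58, adjusted p 0.00393) and Oasl2 by 3.17 (SE 0.46, adjusted p 0.00459). Oas3 was not called at 3.70 (SE 1.08, adjusted p 0.0770). All 3 Yap knockdown libraries exceeded all 3 controls for 8 of 8 members, an arrangement that 13.5% of all genes showed. Oas3 was tested only because of its knockdown values, so its place there is no support.

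Some calls after Yap knockdown were lost without 1 library. Without Yap knockdown replicate 1 only 3 members (Oas1b, Oasl and Oasl2) were called, without replicate 2 there were 5 (Mx1 and Oas2 were lost), and without control replicate 3 there were 6 (Mx1 was lost). Calls over all genes, in either direction, fell in the same fits from 570 to 111, 160 and 136, while the median log2 fold change of the 8 members was 4.48, 4.71 and 4.44 and all 8 had an unadjusted p under 0.05 in each. With the replicate as a block, Oas3 stayed uncalled over all 12 libraries (adjusted p 0.0706). It was called (SE 0.90, adjusted p 0.0189) when the double knockdown libraries were left out as well, a fit in which the other 7 kept their calls.

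Loss of Wwtr1 alone was examined in the same way. After Wwtr1 knockdown the same 7 members rose, against 5.0% of all genes called higher, and the log2 fold changes ran from 2.84 to 6.23 with a median of 4.65. Mx2 rose by 6.23 (SE 0.97, limma adjusted p 0.00259). Oas2 rose by 5.41 (SE 1.06, adjusted p 0.00838), Mx1 by 5.40 (SE 1.03, adjusted p 0.00733) and Oas1a by 5.13 (SE 0.88, adjusted p 0.00417). Oas1b rose by 4.17 (SE 0.58, adjusted p 0.00143), Oasl by 4.06 (SE 0.56, adjusted p 0.00135) and Oasl2 by 3.46 (SE 0.46, adjusted p 0.00119). Oas3, whose libraries overlapped the controls, stood at 2.84 (SE 1.08, adjusted p 0.132), and for 7 of 8 members every Wwtr1 knockdown library lay above every control, against 16.6% of all genes. The 7 calls held without any 1 library. With the replicate as a block the adjusted p of Oas3 was 0.129 over all 12 libraries and 0.0465 without the double knockdown libraries.

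In the double knockdown the 7 members other than Oas3 rose, against 17.1% of all genes called higher, and Oas3, which was tested only because of its knockdown values, was called too. The log2 fold changes ran from 4.39 to 7.61 with a median of 6.17. Oas2 rose by 7.61 (SE 1.06, limma adjusted p 0.000270), Mx1 by 7.49 (SE 1.03, adjusted p 0.000250), Mx2 by 7.49 (SE 0.97, adjusted p 0.000172) and Oas1a by 6.42 (SE 0.88, adjusted p 0.000237). Oasl rose by 5.93 (SE 0.56, adjusted p 2.98e-05), Oas1b by 4.99 (SE 0.58, adjusted p 8.87e-05) and Oasl2 by 4.39 (SE 0.46, adjusted p 4.87e-05). Oas3 rose by 4.42 (SE 1.08, adjusted p 0.00831) and by 3.59 (SE 1.13, adjusted p 0.0290) without double knockdown replicate 3, where Oas2 was 7.37 and Oasl 5.86. For the 7 members other than Oas3 every double knockdown library lay above every control, as for 23.1% of all genes. The same held for Oas3, whose place there is no support. All 8 calls held without any 1 library.

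The size of the Oas2 and Oas3 changes depends on the value added before the logarithm, because their controls were near 0. In the double knockdown Oas2 was 8.85 with 0.1 added and 5.84 with 10 added, and Oas3 was 6.64 and 2.25, with the calls kept. The order of the members depends on it too. With 0.1 added Oas2 was 6.96 and Mx2 5.81 after Yap knockdown, and Oas2 was 6.64 and Mx2 6.24 after Wwtr1 knockdown. Without control replicate 2, with 1 added, Oas2 was 7.07 and Mx2 7.04 after Yap knockdown. Ratios of group means to the control mean, which need no added value, ran from 7.65 (Oas3) to 27.7 (Mx2) after Yap knockdown, from 5.14 (Oas3) to 43.2 (Mx2) after Wwtr1 knockdown and from 18.0 (Oas3) to 88.0 (Oas2) after double knockdown. They moved when a library was left out. Without control replicate 2 they ran from 12.2 (Oasl2) to 203 (Oas2) after Yap knockdown and from 16.8 (Oasl2) to 186 (Oas2) after Wwtr1 knockdown. Mx2 after Wwtr1 knockdown was 28.5 without Wwtr1 knockdown replicate 1. Without double knockdown replicate 3 the double knockdown ratio was 7.19 for Oas3 and 72.6 for Oas2, below Mx1 at 95.2 and Mx2 at 94.8. Without control replicate 2 the double knockdown ratios ran from 28 (Oasl2) to 668 (Oas2), and in none of these 3 comparisons had Oas3 a ratio, because the controls left were at 0.

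**Figure D2:**
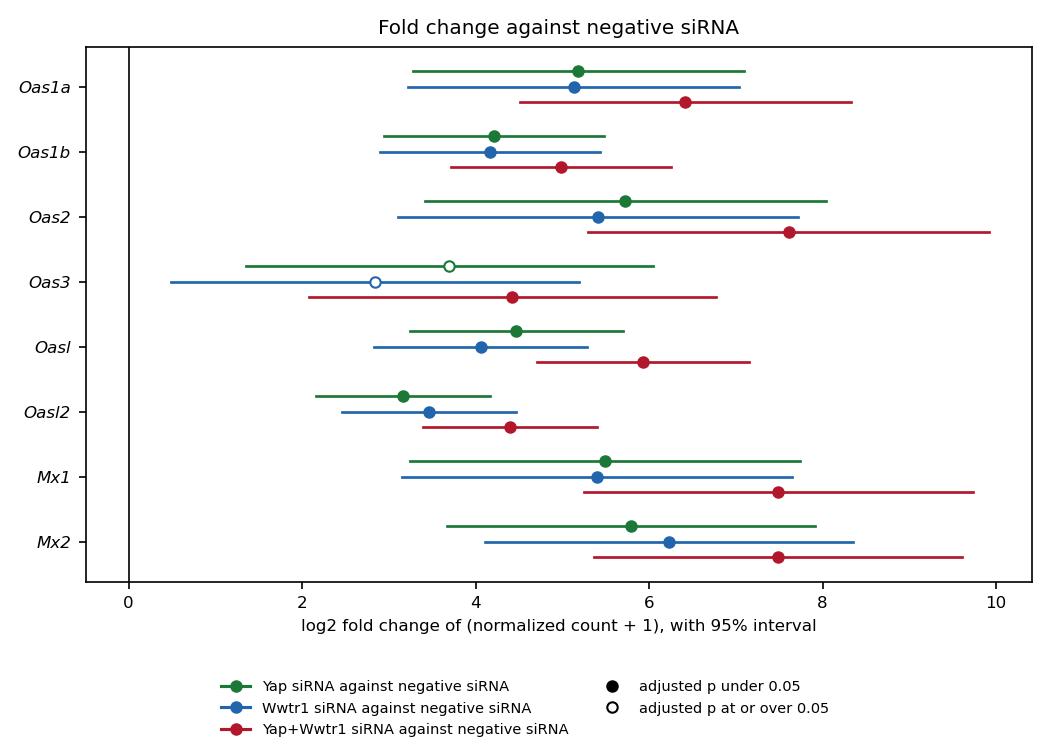
Log2 fold change of normalized counts plus 1 against the controls for the 8 genes, with 95% intervals from limma; filled points had an adjusted p under 0.05. All 24 estimates are above 0, and only Oas3 after Yap knockdown (3.70) and after Wwtr1 knockdown (2.84) is open.

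Whether the 2 coactivators differed was asked by comparing the single knockdowns directly. None of the 8 members was called between Yap and Wwtr1 knockdown by limma, edgeR or DESeq2, and none had an unadjusted p under 0.05 by any of these, while 8.79% of all genes were called in either direction by limma. Differences ran from -0.43 (Mx2) to 0.85 (Oas3) on the log2 scale. The intervals were wide, from -1.30 to 0.71 for Oasl2, the narrowest, and from -1.49 to 3.20 for Oas3, the widest, and each holds a 2-fold difference in at least 1 direction.

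The double knockdown was then set against each single knockdown. Against Yap knockdown all 8 estimates were positive, from 0.73 (Oas3) to 2.00 (Mx1). No member was called by the main limma fit, edgeR or DESeq2, while 6.83% of all genes were called higher by limma. With the replicate as a block over all 12 libraries limma called Oasl2 (adjusted p 0.0426), among 1078 genes called higher. A limma fit of the compared groups only called 2 members (Oasl2 and Mx2), among 450 genes called higher. An unadjusted p under 0.05 was found for 3 members by edgeR, for 2 by DESeq2 and for 2 by limma, Oasl with 1.46 (interval 0.24 to 2.69, adjusted p 0.107) and Oasl2 with 1.22 (interval 0.22 to 2.23, adjusted p 0.09995). For 6 members (Oas1a, Oas2, Oasl, Oasl2, Mx1 and Mx2) every double knockdown library lay above every Yap knockdown library, as for 16.2% of all genes. Without double knockdown replicate 3, Oas3 turned to -0.10, and 1 member rather than 2 had an unadjusted p under 0.05 by limma.

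Against Wwtr1 knockdown the estimates ran from 0.82 (Oas1b) to 2.20 (Oas2), and without double knockdown replicate 3 from 0.75 (Oas3, 1.58 with it) to 2.23 (Mx1), with Oas2 at 1.96. Oasl rose by 1.87 (SE 0.56, limma adjusted p 0.0363), the only member called, where 9.75% of all genes were called higher. For Oas1a, Oas2, Oasl and Mx1 every double knockdown library lay above every Wwtr1 knockdown library, as for 18.9% of all genes. The Oasl call was lost without Wwtr1 knockdown replicate 2 or 3, and without any 1 of the double knockdown replicates, with an adjusted p of up to 0.141. The comparisons of the double knockdown with the controls and with each single knockdown share the same 3 double knockdown libraries.

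**Figure D3:**
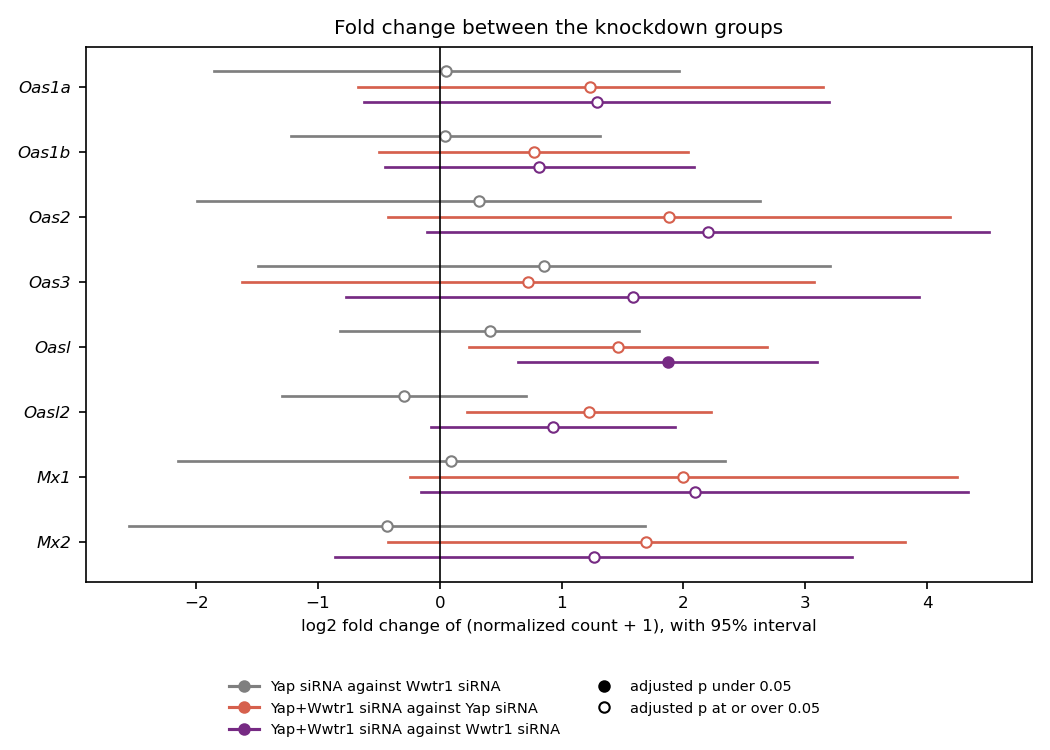
Log2 fold change of normalized counts plus 1 between knockdown groups for the 8 genes, with 95% intervals from limma; filled points had an adjusted p under 0.05. Differences between Yap and Wwtr1 knockdown straddle 0 (-0.43 to 0.85), those of the double knockdown against a single knockdown are all above 0, and Oasl against Wwtr1 knockdown (1.87) is the only filled point.

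The interaction term asks whether the double knockdown effect equals the sum of the single effects on the log2 scale. It was below 0 for all 8 members, from -2.11 (Oas3) to -4.53 (Mx2), a rise smaller than the summed log2 effects. The sizes of Oas2 and Oas3 depended on the value added before the logarithm, and were -4.76 and -4.24 with 0.1 added and -1.87 and -0.44 with 10 added. Mx2 was -5.78 without control replicate 2. By limma 7 members had an unadjusted p under 0.05 and none was called, with Oas1b nearest at -3.40 (SE 0.82, adjusted p 0.0715), and 1.03% of all genes were called in either direction. With the replicate as a block over all 12 libraries limma called Oas1b (adjusted p 0.0313), among 231 genes in all. DESeq2 called 3 members (Oas1b, Oasl and Oasl2) among 500 genes in all, where limma in the main fit called 122. By edgeR none was called among 102 genes, with 7 members at an unadjusted p under 0.05, and limma called 3 (Oas1a, Oas1b and Mx2) among 57 genes without control replicate 2. On the linear scale the picture was another. The double knockdown mean was above the sum of the single means less the control mean for 7 members, by a factor of 1.02 for Oasl2 to 1.75 for Oas2, and was 0.829 times that sum for Oas1b. These factors were not tested, and the count depended on single libraries. It was 6 without any 1 double knockdown replicate, 5 without Yap knockdown replicate 3 and 4 without Wwtr1 knockdown replicate 3, and Oas3 turned from 1.52 to 0.610 without double knockdown replicate 3.

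Replicates of a group varied widely in these genes, and they varied together. The median SD of the 8 members on the log2 scale was 2.15 in the controls, 0.80 after Yap knockdown, 1.29 after Wwtr1 knockdown and 0.29 after double knockdown, where the medians over all genes tested were 0.14, 0.15, 0.13 and 0.17. In the Yap knockdown group replicate 1 was the highest and replicate 3 the lowest for 7 members, and for the same 7 members this order held after Wwtr1 knockdown. The exception was Oas3. Control replicate 2 was the highest for all 8. Across the 12 libraries, deviations from group means correlated between members with a median Pearson r of 0.87 over 28 pairs (range 0.58 to 0.99), whereas the median r of these deviations between a member and any other gene tested was -0.01. These points share their libraries, and no test was made of them. Residual Yap1 was 532, 576 and 625 in the Yap knockdown replicates 1, 2 and 3 and residual Wwtr1 was 524, 550 and 637 in the Wwtr1 knockdown replicates 1, 2 and 3, so that in each group replicate 3, the lowest for 7 members after Yap knockdown and for all 8 after Wwtr1 knockdown, had the highest targeted gene. After double knockdown replicate 3 had the highest Yap1 and Wwtr1, and it was the lowest for 5 members (Oas1a, Oas1b, Oasl2, Mx1 and Mx2) and the highest for 3 (Oas2, Oas3 and Oasl). In the controls replicate 2 had the highest Yap1 and Wwtr1 and the highest values of all 8 members. The part of residual target in the spread was not tested.

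The members lie in clusters of close paralogs, and reads that fit several copies could have been divided between them in different ways, so that a single paralog is less certain than a sum. In the RefSeq annotation the Oas genes lie on chromosome 12 and the Mx genes on chromosome 11. Oas1a and Oas1b summed gave log2 differences from the controls of 4.65 after Yap knockdown, 4.60 after Wwtr1 knockdown and 5.70 after double knockdown. Mx1 and Mx2 summed gave 5.71, 5.99 and 7.50, the 6 Oas members summed gave 3.98, 3.96 and 5.22, and all 8 gave 4.78, 4.97 and 6.41. These sums were not tested.

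Within a pair of paralogs the ratio of the copies differed in range between groups. The test used could not have called such a difference with 3 against 3 libraries. The ratio of Oasl to Oasl2 was 0.271 to 0.305 in the controls, 0.408 to 0.462 after Wwtr1 knockdown, 0.488 to 1.02 after Yap knockdown and 0.633 to 1.17 after double knockdown, with no overlap between the controls, the Wwtr1 knockdown and either other group. Oas1a to Oas1b was 0.333 to 1.27 in the controls, 1.08 to 1.44 after Yap knockdown, 1.06 to 1.56 after Wwtr1 knockdown and 1.60 to 1.96 after double knockdown. Mx1 to Mx2 was lower after Wwtr1 knockdown, at 0.267 to 0.423, than in the controls, at 0.519 to 0.681, or after double knockdown, at 0.525 to 0.659, and it overlapped the range after Yap knockdown, 0.353 to 0.578. Where ranges did not overlap, the two-sided exact permutation test gave p = 0.1, the smallest that 3 against 3 libraries allow, and 0.18 after Benjamini-Hochberg adjustment over the 18 comparisons. A ratio shows unequal change and not which copy moved.

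**Figure D4:**
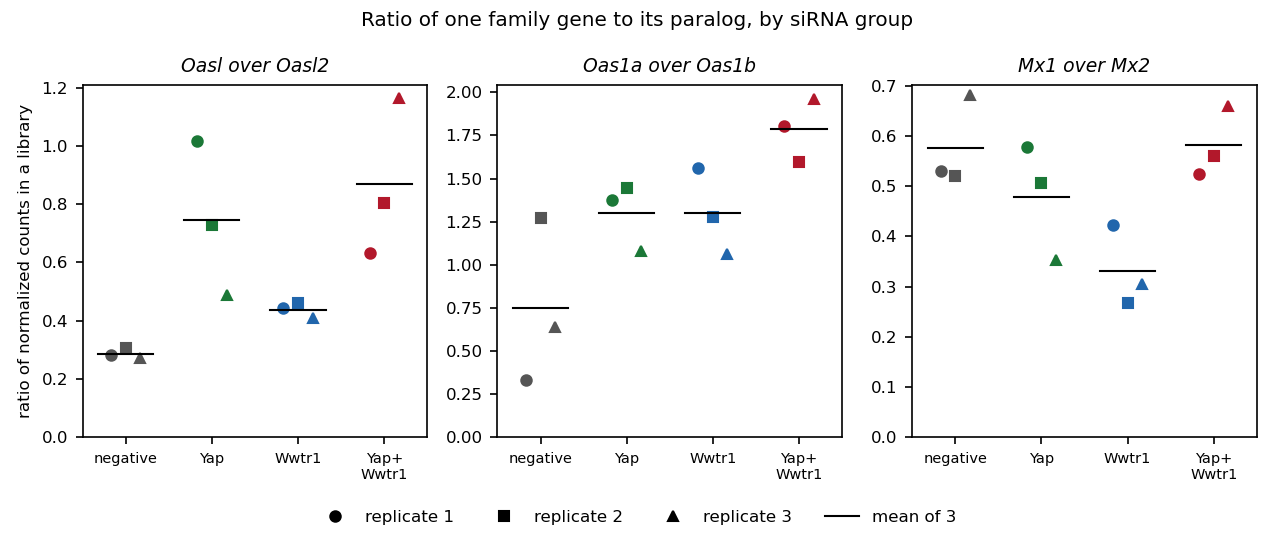
Ratio of normalized counts of a gene to its paralog in each library, by siRNA group; symbols are replicates 1 to 3 and lines are means of 3 libraries. Oasl over Oasl2 is lowest in the controls (0.271 to 0.305), and Mx1 over Mx2 is lowest after Wwtr1 knockdown (0.267 to 0.423).

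Other Oas1 copies were read beside the members. The lists of related genes are read against all 11871 genes tested, of which limma called 359 higher and 211 lower after Yap knockdown, 594 and 470 after Wwtr1 knockdown and 2035 and 1853 after double knockdown. Of 8 further Oas1 paralogs looked for, 4 were listed (Oas1f, Oas1h, Oas1i and Oas1k) and 3 were tested. Oas1i rose in each knockdown group, and Oas1f and Oas1k, which were tested only because of their knockdown values, were called in each too. Oas1i was 22.6, 129 and 50.6 normalized counts in the controls and 1588, 2176 and 1531 after double knockdown, with a log2 rise of 5.01 (SE 0.54, adjusted p 5.62e-05 by limma). Oas1f was listed at 0 in all controls and was 81.6, 94.5 and 74.6 after double knockdown, at least 27.3-fold higher when each control library is set to a floor of 3 reads. The median of the 3 after double knockdown was 5.16, or 5.01 with Oas1f at that bound, against 0.00 over all genes.

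Sensors of double-stranded RNA were read beside the synthetases. Of 7 sensors and adaptors, 4 rose after Yap knockdown, after Wwtr1 knockdown and after double knockdown (Ifih1, Ddx58, Dhx58 and Eif2ak2), Zbp1, tested only because of its knockdown values, was called in each too, Tlr3 rose after double knockdown as well, and the adaptor Mavs fell after Wwtr1 knockdown. The list median was 2.01, 2.35 and 2.98, and it was the same with Zbp1, listed at 0 in all controls, at its bound. Dhx58, a helicase related to RIG-I, was 84.8 to 245 in the controls and 2655 to 3784 after double knockdown, and Eif2ak2, the kinase PKR that halts translation on double-stranded RNA, rose by 2.16 (SE 0.31, adjusted p 0.000328) there. Of the DNA-sensing arm, Sting1 rose after double knockdown by 0.57 (SE 0.14, adjusted p 0.00757), and Tbk1 was called in no comparison with the controls. The block fit without the double knockdown libraries also called Sting1 after Yap knockdown (0.34, adjusted p 0.0276).

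Of the inducing pathway, none of 12 interferon ligand genes looked for (9 of type I) was listed in the table, and nothing is said here of their level. Among 5 listed interferon receptor genes Ifngr1 fell in each knockdown group, Il10rb rose after Wwtr1 knockdown and after double knockdown, and Ifnar1, a type I receptor chain, rose after double knockdown by 0.29 (SE 0.07, limma adjusted p 0.00933). The receptor list median was 0.03, -0.09 and 0.29. Of 7 kinases and transcription factors, 3 rose after Yap knockdown (Stat2, Irf9 and Irf7), the same 3 after Wwtr1 knockdown (while Irf3 fell) and 4 after double knockdown (with Irf1 added, while Irf3 fell). Their medians were 0.46, 0.32 and 1.05. Jak1 and Tyk2 were called in none of these. Irf7, the factor that amplifies interferon production, was 197, 853 and 334 normalized counts in the controls, 10676, 7019 and 4047 after Yap knockdown, 13974, 8360 and 2988 after Wwtr1 knockdown, and 18272, 19059 and 17990.5 after double knockdown. Irf1 was not called after Yap or Wwtr1 knockdown, and the block fit without the double knockdown libraries called it in both (adjusted p 0.0123 and 0.0465), as it did Il10rb after Yap knockdown (adjusted p 0.0276).

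Of 5 inhibitors of interferon signalling, Usp18 and Socs1 rose in each knockdown group, and Socs3, Ptpn2 and Pias1 were called in none of these comparisons. The list medians were 0.07, 0.05 and 0.67. Usp18, which removes Isg15 and blocks the type I receptor, was 16.4, 236 and 18.6 normalized counts in the controls and 4447, 5301 and 3607 after double knockdown, a rise of 6.67 (SE 0.86, limma adjusted p 0.000172). Relatives of Mx in the dynamin family were read in the same way. Of 7 dynamins and mitochondrial dynamin-like GTPases, Dnm1 rose after Yap knockdown by 1.04 (SE 0.20, adjusted p 0.0159) and after double knockdown by 1.42 (SE 0.20, adjusted p 0.000320), and 6 were called in no comparison with the controls. The same block fit called Dnm1 after Wwtr1 knockdown (0.31, adjusted p 0.0472). Their median was -0.08, -0.01 and 0.11.

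**Figure D5:**
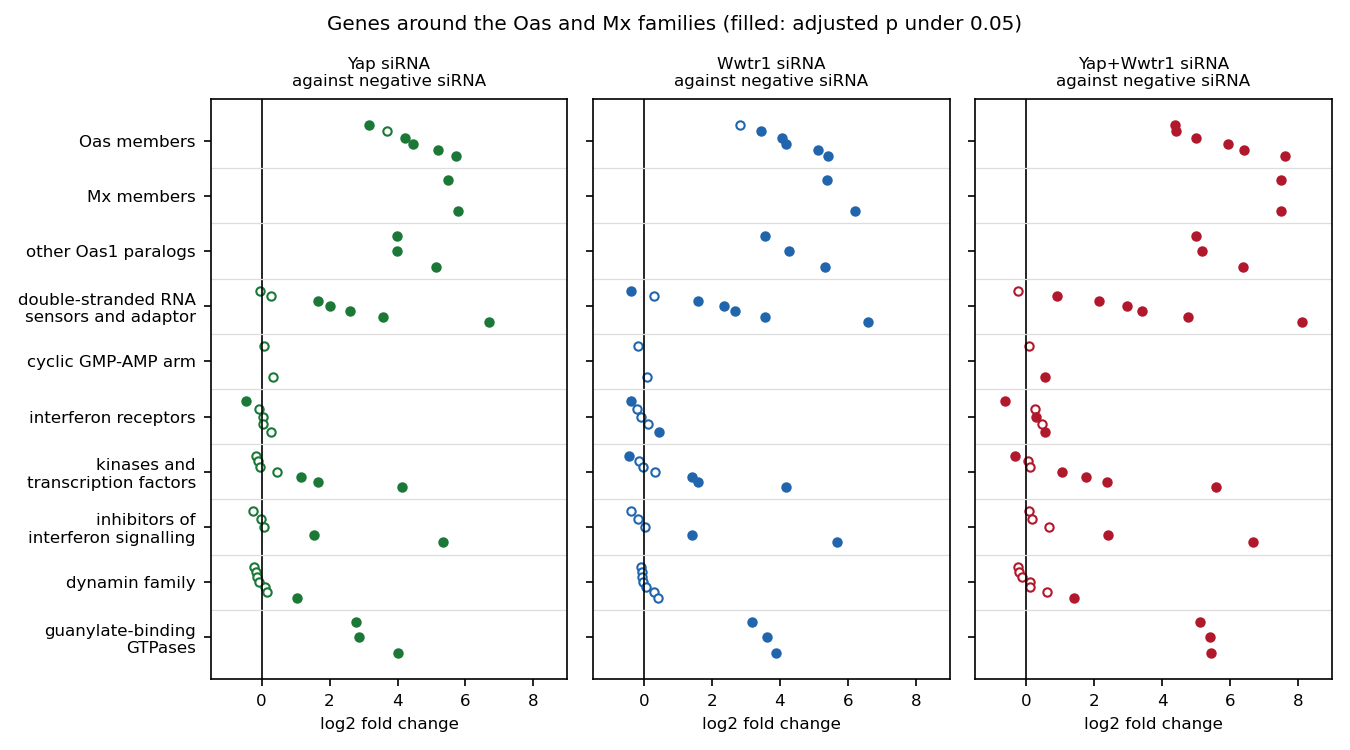
Log2 fold change against the controls for each gene of the lists around the Oas and Mx families, one panel per knockdown group; filled points had an adjusted p under 0.05 (limma). The Oas members, Mx members and other Oas1 paralogs sit between 2.84 and 7.61, while the interferon receptors sit between -0.61 and 0.57. Genes of other lists reach the members' range too, such as Irf7 (5.59) and Dhx58 (4.75) after double knockdown. The guanylate-binding median there was 5.41. The fitted values of Oas1f and Zbp1, listed at 0 in all controls, depend on the value added.

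The 5 genes outside the members with the most similar pattern over the 12 libraries, by median Pearson r with the 8 members on the log2 scale, were Irf7 (r 0.99), Oas1i (0.99), Isg15 (0.98), Rtp4 (0.98) and Dhx58 (0.98). Their log2 fold changes after double knockdown were 5.59, 5.01, 5.93, 6.91 and 4.75. The 12 points share the group structure, and the correlation is given as a description.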

How the data were processed

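Total RNA from 12 cultures (4 siRNA groups of 3) was sequenced by the authors, who used Trim Galore 0.6.5, HISAT2, StringTie and DESeq2 on rat build rn6. Each deposited signal value is a count, per gene symbol, divided by a size factor of its library. All 147252 values were whole multiples of 1 step per library within 0.01 read, so reads were recovered. The authors' own fold changes and p-values were not used. Members and lists were chosen with earlier results of these data known.

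The main test was limma 3.58.1 (R 4.3.3) on log2(normalized count + 1) with a mean-variance trend, all 12 libraries, no covariate, a minimum mean of 10 per gene, and two-sided Benjamini-Hochberg adjustment over all 11871 genes at 0.05. A fold change on this scale understates that of low genes. Alternatives were other pseudocounts, filters and scalings, edgeR 4.0.16 and DESeq2 1.42.0 on recovered reads, a replicate block, and leaving out each library. The fit was also run on simulated data with known changes, as a check of the code only. Named genes were the 8 members, Yap1, Wwtr1, genes of fixed lists and the 5 genes most like the members.

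Replicate numbers were taken to pair control, Yap and Wwtr1 knockdown libraries. The study's methods name separate litters, and deviations of same-numbered libraries correlated at 0.104 to 0.276 over all genes (over the 8 members alone at -0.885 to 0.724). With double knockdown libraries they correlated at -0.127 to 0.180, which overlaps the first range. Whether that group is paired too cannot be told, so the block was fitted with and without it. The main fit had no replicate term. Recovered totals limit counting error only, and 0 reads allow up to 3. Symbols were matched to assembly GRCr8, where 12147 of 12271 were found. Whether counting used the strand is not given in the sources used here. The exact permutation tests of paralog ratios were added after the values were seen. Some genes of the lists are not reported here.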

Additional observations from a re-analysis of the deposited data

How the results depend on the processing

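In the double knockdown against negative siRNA all members tested were called under each alternative run, and for Wwtr1 siRNA against negative siRNA 7 or 8 were. For Yap siRNA against negative siRNA the count of 7 members ranged from 3 to 8 when 1 library was left out, the 3 without Yap siRNA replicate 1 and the 8 without negative siRNA replicate 2, which also brought Oas3 past the threshold with Wwtr1 siRNA. For Yap+Wwtr1 siRNA (the double knockdown) against Yap siRNA the count of 0 became 2 in a fit of the compared groups only (Oasl2 and Mx2) and ran from 0 to 1 when 1 library was left out (Oasl2 without Wwtr1 siRNA replicate 3). For Yap+Wwtr1 siRNA against Wwtr1 siRNA the count of 1 became 2 with a pseudocount of 10 (Oas2 and Oasl), 0 with no mean-variance trend, and 0 to 1 when 1 library was left out. For the interaction of Yap and Wwtr1 siRNA the count of 0 became 3 with DESeq2 and ran from 0 to 3 when 1 library was left out, with 3 without negative siRNA replicate 2 and 2 without Wwtr1 siRNA replicate 3. The causes were not tested.

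With the replicate block over all 12 libraries, the count for Yap+Wwtr1 siRNA against Yap siRNA became 1 (Oasl2) and that of the interaction of Yap and Wwtr1 siRNA became 1 (Oas1b), and no other count of members changed. Fitted to the 9 libraries of the other groups, the replicate block called 8 members in each single knockdown.

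Between Yap siRNA and Wwtr1 siRNA, where no member was called, the sign depended on the setting. The log2 fold changes of Oas1a, Oas1b and Mx1 were -0.13, -0.081 and -0.11 with edgeR and -0.12, -0.0768 and -0.11 with DESeq2. When 1 library was left out, values ran from -0.65 to 0.53 for Oas1a, -0.52 to 0.38 for Oas1b, -0.50 to 0.91 for Oas2, -0.21 to 0.93 for Oasl, -0.87 to 0.11 for Oasl2, -0.72 to 0.84 for Mx1 and -1.20 to 0.12 for Mx2. Oas3 in Yap+Wwtr1 siRNA against Yap siRNA ran from -0.10 to 1.36.

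Counts over all genes moved more. With Yap siRNA against negative siRNA 570 genes were called, 1013 by DESeq2, 294 with no trend, 874 with the replicate block, 1904 with the block and no double knockdown libraries, and 111 without Yap siRNA replicate 1. With Wwtr1 siRNA 1064 were called, 2527 with the block and no double knockdown libraries and 548 without Wwtr1 siRNA replicate 2, and between the single knockdowns 1044, 2680 and 434 in the same fits. For the double knockdown against Wwtr1 siRNA 2359 were called and 1288 without Wwtr1 siRNA replicate 3. For the double knockdown against Yap siRNA 1637 were called, 774 in the compared groups alone and 758 without Yap siRNA replicate 3. For the interaction 122 were called, 500 by DESeq2, 60 with no trend, 231 with the replicate block and 31 without Wwtr1 siRNA replicate 2.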

Other observations

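Guanylate-binding proteins are another family of interferon-induced GTPases, which attack the membranes around intracellular pathogens. Of 7 looked for, 3 were listed (Gbp2, Gbp4 and Gbp5), and all 3 rose in each knockdown group. Of all 11871 genes tested, limma called 359 higher after Yap knockdown, 594 after Wwtr1 knockdown and 2035 after double knockdown. The median log2 fold changes of the 3 listed genes were 2.88 after Yap knockdown, 3.62 after Wwtr1 knockdown and 5.41 after double knockdown. Gbp2 was 234, 301 and 185 normalized counts in control replicates 1, 2 and 3, 3588, 1753 and 698 after Yap knockdown, 6370, 3042 and 1257 after Wwtr1 knockdown, and 13396, 10910 and 7246 after double knockdown. The 3 double knockdown libraries lay above all others. Against Yap knockdown the double knockdown was higher in Gbp2 by 2.64 (SE 0.59, limma adjusted p 0.0130) and in Gbp5 by 2.24 (SE 0.57, limma adjusted p 0.0238). Gbp4 was not called there, and 6.83% of all genes were called higher. Against Wwtr1 knockdown only Gbp5 was called, where 9.75% of all genes were called higher.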
